A study of Homo sapiens with 6 samples.

Results

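The integrins examined here are the 10 alpha and beta chains that breast cancer cells are known to carry, ITGA2, ITGA3, ITGA5, ITGA6, ITGAV, ITGB1, ITGB3, ITGB4, ITGB5 and ITGB8, chosen by gene name. All 10 were found among the 60606 genes of the table, and all 10 reached the mean of 1 TPM needed for testing. RNA was sequenced from xenograft tumors of MDA-MB-231, an established human breast cancer cell line of the triple-negative type, grown under the skin of NOD/SCID/IL2Rγ-null (NSG) mice, which have no T, B or natural killer cells, after injection with Matrigel, a basement membrane extract rich in laminin. The 3 control tumors were not irradiated. The 3 irradiated tumors received a single local dose of 10 Gy of X-rays when they had grown to about 800 mm3, and RNA was taken 3 days after that. For the controls neither volume nor collection time was recorded in the labels, nor the age of the mice. Separate animals are not stated either, which leaves p-values as a measure of the spread between these tumors alone. Values are TPM, a share of all transcripts of a tumor corrected for gene length, so levels of different chains can be compared within a tumor.

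Integrins are cell surface receptors made of 1 alpha and 1 beta chain. The pair decides the ligand. ITGB1 joins ITGA2 to bind collagen, ITGA3 or ITGA6 to bind laminin, and ITGA5 to bind fibronectin. ITGAV joins ITGB1, ITGB3, ITGB5 or ITGB8 to bind ligands with an RGD motif such as vitronectin, fibronectin and latent TGF-beta, and ITGB4 pairs only with ITGA6, in the hemidesmosome. The short tails of ITGB1, ITGB3 and ITGB5 inside the cell bind talin and kindlin, which switch the receptor on, through the NPXY motif and its variants. In breast cancer cells integrins carry adhesion to matrix, migration and survival signals, also after radiation.

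The end of the coding sequence shows how the beta chains differ, and it also bears on how ITGB1 was measured. The last 150 coding bases before the stop codon are shown for 4 beta chains, from GENCODE release 29 transcripts on GRCh38, 5′ to 3′, with codons of the NPXY motif in capitals. They lie at chr10:32901573-32908454 (ITGB1, minus strand), chr17:47307551-47310201 (ITGB3, plus strand), chr3:124763626-124764447 (ITGB5, minus strand) and chr7:20409749-20409994 (ITGB8, plus strand), each split over 2 exons.
ITGB1: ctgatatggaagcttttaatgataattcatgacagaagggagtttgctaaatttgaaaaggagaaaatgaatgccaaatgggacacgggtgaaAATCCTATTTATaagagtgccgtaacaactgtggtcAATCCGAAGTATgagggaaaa
ITGB3: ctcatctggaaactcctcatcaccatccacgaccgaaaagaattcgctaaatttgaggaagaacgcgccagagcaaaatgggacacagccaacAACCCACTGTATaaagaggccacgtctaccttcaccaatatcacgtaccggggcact
ITGB5: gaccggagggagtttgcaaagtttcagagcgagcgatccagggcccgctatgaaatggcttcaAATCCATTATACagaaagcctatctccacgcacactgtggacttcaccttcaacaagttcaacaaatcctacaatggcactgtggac
ITGB8: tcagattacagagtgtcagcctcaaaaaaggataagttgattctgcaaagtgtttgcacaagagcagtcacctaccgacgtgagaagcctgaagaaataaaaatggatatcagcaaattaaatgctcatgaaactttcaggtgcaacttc
ITGB1 held 2 such runs of codons, ITGB3 and ITGB5 held 1 each, and ITGB8 held 0 in these bases. The ITGB1 line is also, letter for letter, the end of the pseudogene ITGB1P1 (chr19:14621634-14621783, minus strand). All 609 bases of ITGB1P1 matched bases 1922 to 2530 of the 3784-base ITGB1 transcript with 0 mismatches, across exons 13 to 16, so a read from inside this stretch carries no letter that tells the 2 genes apart.

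Markers of cells other than the cancer line were also read in these tumors, and some differed between the groups. Summed fibroblast markers (10 genes) ranged from 479 to 1008 TPM in controls and from 134 to 216 TPM in irradiated tumors. Markers of pericytes and smooth muscle (7 genes) ranged from 277 to 515 and from 57.9 to 135 TPM. Those of skeletal muscle (12 genes) ranged from 141 to 396 and from 0.93 to 98.3 TPM. In limma 3 of 7, 2 of 6 and 3 of 10 tested passed, all lower, against 1.61% of all tested genes. At an unadjusted p under 0.05 5, 3 and 10 of them were lower and 1, 0 and 0 higher. Over all tested genes these shares were 11.5% and 8.93%. All 10 tested muscle markers were below all controls in all irradiated tumors, as were 15.0% of all tested genes. The muscle gene ACTA1 was at 0.73, 41.0 and 0.43 TPM in irradiated tumors 1, 2 and 3. Most of the fibroblast sum came from COL1A1, COL1A2 and COL3A1, while LUM did not exceed 0.09 TPM, PDGFRA 0.22 TPM and DCN 4.82 TPM, and PDGFRB was at 2.12 to 4.95 TPM in controls and 4.21 to 12.8 TPM after irradiation. ACTA2, TAGLN and DES made up most of the pericyte and smooth muscle sum, and ACTA2 and TAGLN were the genes that passed. DES (log2 fold change -3.03), RGS5 (-0.90) and NOTCH3 (-0.64) were lower and CSPG4 (0.61) higher without passing in limma. MYH11 did not exceed 0.76 TPM. Endothelial markers (8 genes) summed to 34.2 to 48.7 and 50.3 to 86.7 TPM, and myeloid markers (10 genes) to 92.1 to 114 and 109 to 209 TPM, with 0 of 3 and 0 of 5 tested passing in limma and 1 and 2 higher at an unadjusted p under 0.05. EGFL7 made up most of the endothelial sum (26.7 to 40.3 and 43.8 to 64.4 TPM) and CD68 most of the myeloid one. Of the 10 markers of MDA-MB-231 0 passed in limma, with a list median log2 fold change of -0.20 against -0.056 for all tested genes. At an unadjusted p under 0.05 0 were higher and 3 lower, where 8.93% and 11.5% of all tested genes were. Those 3 were below all controls in all irradiated tumors, as were 15.0% of all tested genes. VIM was at 3797 to 5283 TPM in controls against 3148 to 3685 TPM after irradiation, CD44 at 221 to 267 against 158 to 200 TPM, and AXL at 157 to 205 against 108 to 138 TPM. In bulk tumors fewer cells of a type and less RNA per cell cannot be told apart. Marker transcripts of the cancer cells themselves, or mouse reads counted for human genes, cannot be told apart from either. The handling of mouse reads is not given in the sources used here. The part of other cells in the values that follow was not tested. Column totals ran from 992259 to 998569 TPM, and each tumor had 13392 to 14218 genes at 1 TPM or more. The first principal component separated the groups, and the second, with 19.1% of the variance, set control tumor 2 apart.

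No chain among these 10 integrins passed the test between irradiated and control tumors. Of the 10 chains 0 had a limma adjusted p under 0.05, where 2.98% of all 14140 tested genes did, 1.37% higher and 1.61% lower. At an unadjusted p under 0.05 there were 2, ITGB5 (higher) and ITGA6 (lower), against 20.5% of all tested genes. The groups did not overlap in 1 of the 10, ITGB5, against 26.6% of all tested genes. Of the 10 chains 5 had a fold change above 0, and their median log2 fold change was 0.038, where that of all tested genes was -0.056. The summed level of the 10 chains was 921, 915 and 899 TPM in control tumors 1, 2 and 3 and 1002, 1034 and 849 TPM in irradiated tumors 1, 2 and 3 (exact permutation test, two-sided, p = 0.40, where 0.10 is the smallest p that 3 against 3 allows). Irradiated tumor 3 was below the controls and the other irradiated tumors above them, and the difference of 50.0 TPM became 13.9 TPM without irradiated tumor 2, 29.8 TPM without irradiated tumor 1 and 106 TPM without irradiated tumor 3. Scaling by medians of ratios gave 85.4, and rescaling without ribosomal protein genes and genes of the mitochondrial genome gave 113. Counting ITGB1P1 with ITGB1 gave 17.5 TPM.

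The order of mean levels was the same in both groups. ITGA3 was highest, followed by ITGB1, ITGB5, ITGA5, ITGA6, ITGB4, ITGA2, ITGAV, ITGB3 and ITGB8. In controls the ranges over tumors overlapped between ITGA3 and ITGB1, between ITGB5 and ITGA5, and between ITGB4 and ITGA2, so these neighbours did not differ beyond their spread. In irradiated tumors ITGA3 and ITGB1 no longer overlapped, ITGB5 and ITGA5 did, and so did each neighbouring pair from ITGA6 down to ITGAV. Within each irradiated tumor, however, ITGB5 was above ITGA5 and ITGA2 above ITGAV. Mean levels spanned from 353 TPM (ITGA3) to 1.40 TPM (ITGB8) in controls and from 389 to 1.73 TPM in irradiated tumors.

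**Figure D1:**
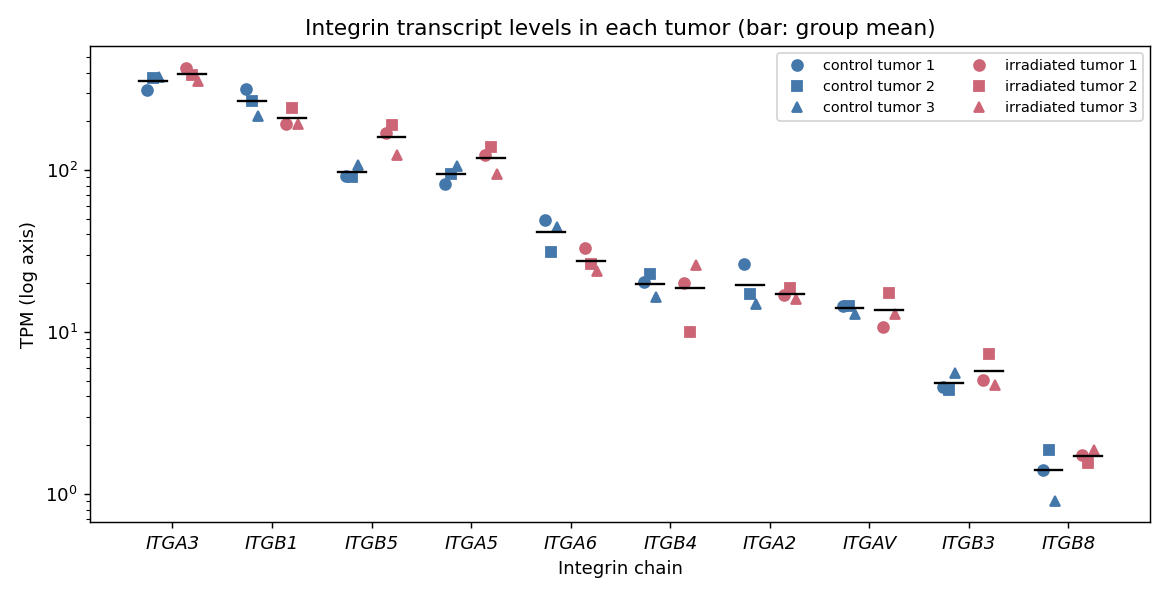
TPM of the 10 integrin chains in each of the 3 control (blue) and 3 irradiated (red) tumors on a log axis, with symbols for the tumor number and a bar at the group mean. Only for ITGB5 do all irradiated tumors (123 to 189 TPM) lie above all controls (91.0 to 108 TPM).

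ITGB5, the beta chain that pairs with ITGAV to bind vitronectin, had the smallest p of the 10. Its level was 92.2, 91.0 and 108 TPM in control tumors 1, 2 and 3 and 170, 189 and 123 TPM in irradiated tumors 1, 2 and 3. All irradiated tumors were above all controls, with irradiated tumor 3 closest to them. The means were 97.1 ± 9.56 TPM and 161 ± 34.0 TPM (SD, n = 3 tumors per group), a log2 fold change of 0.70 on the log2(TPM + 1) scale (95% interval 0.29 to 1.11, limma adjusted p = 0.0790). The gene passed in 1 of 19 alternative fits, with sample weights (limma adjusted p = 0.0413), and its adjusted p ranged up to 0.239. Its fold change was above 0 in all 19, from 0.53 to 0.88. ITGB5 (ENSG00000082781) lies at chr3:124761948-124901418 on the minus strand in GRCh38.

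ITGB1, the partner of most alpha chains, was at 317, 265 and 215 TPM in control tumors 1, 2 and 3 and at 192, 240 and 193 TPM in irradiated tumors 1, 2 and 3. Irradiated tumor 2 lay between the controls and the other irradiated tumors below all of them, so the groups overlapped. The means were 266 ± 51.1 and 208 ± 27.8 TPM (log2 fold change -0.34, 95% interval -0.74 to 0.06, limma adjusted p = 0.307). ITGB1 (ENSG00000150093) lies at chr10:32900319-33005792 on the minus strand, with ITGB1-DT (3.38 to 4.41 TPM) opposite part of it.

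The pseudogene ITGB1P1 (ENSG00000269378, chr19:14621634-14622242), a processed copy without introns, fell in irradiated tumors. It was at 79.9, 67.0 and 54.8 TPM in control tumors 1, 2 and 3 and at 33.4, 33.9 and 37.1 TPM in irradiated tumors 1, 2 and 3, a fall of the mean from 67.2 ± 12.5 to 34.8 ± 2.03 TPM (log2 fold change -0.92, 95% interval -1.30 to -0.53, limma adjusted p = 0.0292). The groups did not overlap. Leaving out control tumor 1 or any of the irradiated tumors ended the call (limma adjusted p up to 0.114). So did a replicate block, a fit without trend, a fit without a filter on low values and omitting both tumors numbered 2.

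Relative to ITGB1 the pseudogene was nearly constant in controls and lower in irradiated tumors. It equalled 25.2%, 25.3% and 25.5% of the ITGB1 level in control tumors 1, 2 and 3 and 17.4%, 14.1% and 19.2% in irradiated tumors 1, 2 and 3. How the reads of the shared 609 bases were divided between the 2 genes is not given in the sources used here, so transcripts of ITGB1 counted for the pseudogene and transcripts of the pseudogene itself cannot be told apart. With both summed the level was 397, 332 and 270 TPM in control tumors and 225, 274 and 230 TPM in irradiated tumors. The summed value had a log2 fold change of -0.44 (limma adjusted p = 0.186) and did not pass either, and irradiated tumor 2 still lay above control tumor 3.

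**Figure D2:**
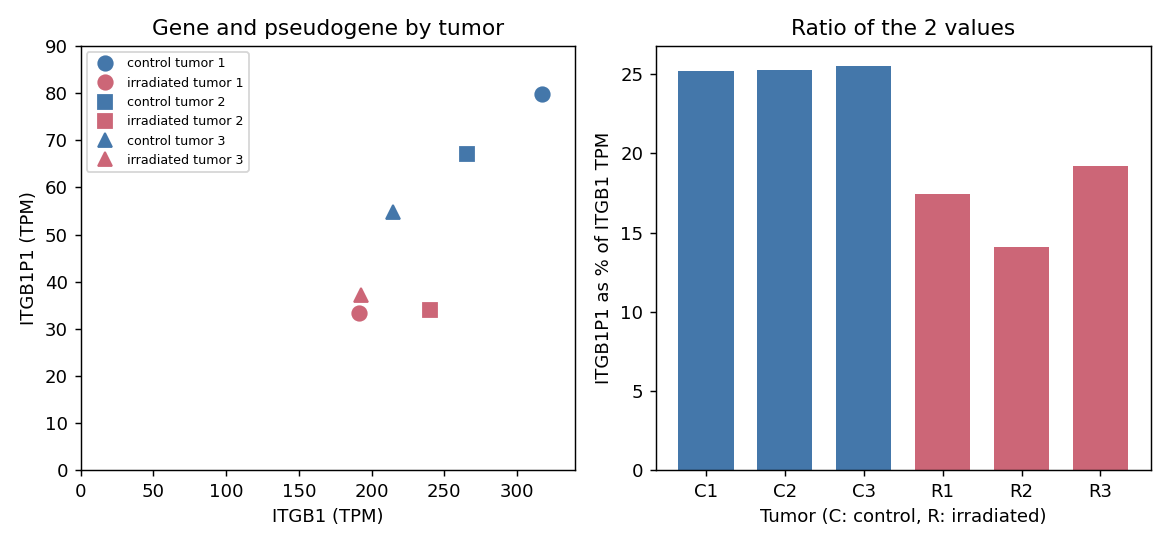
Left, ITGB1 against ITGB1P1 in TPM, 1 point per tumor. Right, ITGB1P1 as a percentage of ITGB1 in each tumor (C, control; R, irradiated). The 3 control bars stand at 25.2% to 25.5% and the 3 irradiated bars at 14.1% to 19.2%.

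Among the beta chains the share of ITGB1 did not overlap between the groups, in a design too small for its test to pass 0.05. ITGB1 made up 72.8%, 68.8% and 62.1% of the summed TPM of the 5 beta chains in control tumors 1, 2 and 3 and 49.3%, 53.6% and 55.3% in irradiated tumors 1, 2 and 3. All irradiated tumors were below all controls (67.9 ± 5.39% against 52.8 ± 3.09%, SD, n = 3; exact permutation test, two-sided, p = 0.10, the smallest that 3 against 3 allows). ITGB5 made up 21.2%, 23.6% and 31.3% in controls and 43.7%, 42.2% and 35.3% in irradiated tumors, which largely mirrors the ITGB1 share, since these are the most abundant beta chains, and is no separate measure. The difference in the ITGB1 share was -15.2 percentage points, from -18.1 to -12.7 without single tumors, and -16.0 with ITGB1P1 counted as ITGB1. The ratio of ITGB1 to ITGB5 was 3.44, 2.92 and 1.99 in control tumors and 1.13, 1.27 and 1.57 in irradiated tumors. The summed beta chains themselves were 346 to 436 TPM in controls and 349 to 449 TPM after irradiation.

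**Figure D3:**
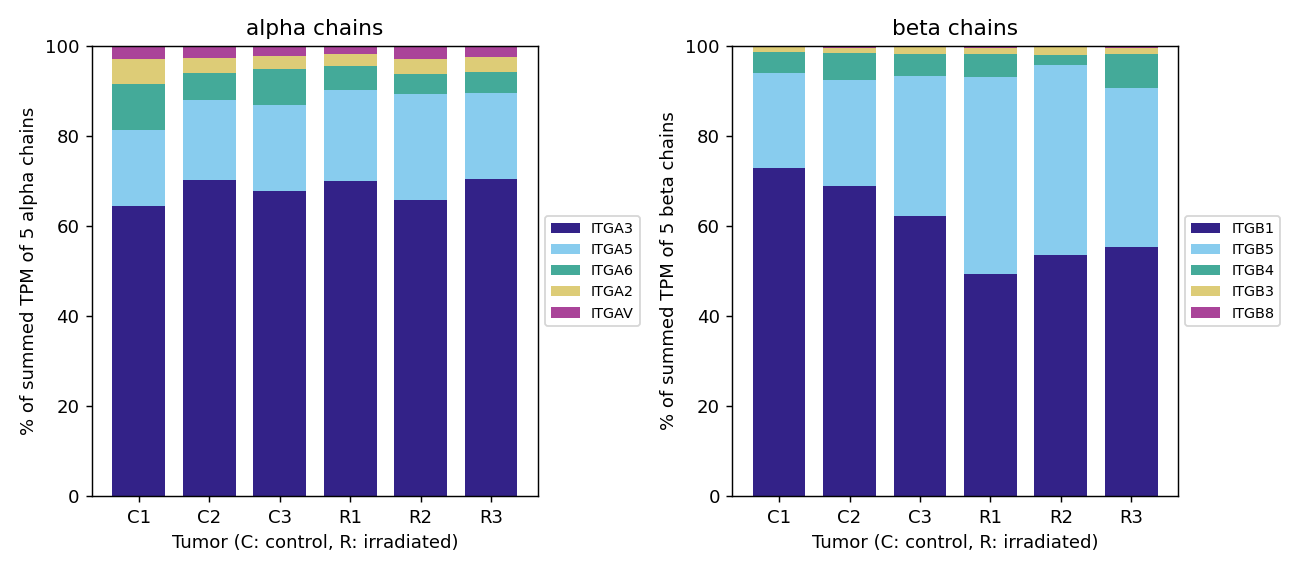
Shares of the summed TPM of the 5 alpha chains (left) and 5 beta chains (right) in each tumor (C, control; R, irradiated), as stacked percentages. ITGA3 holds 64.5% to 70.6% of the alpha chains in all 6 tumors, while ITGB5 holds 21.2% to 31.3% of the beta chains in controls and 35.3% to 43.7% in irradiated tumors.

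The remaining beta chains overlapped between the groups. ITGB4, the hemidesmosome chain with a long tail of its own, was at 20.4, 22.9 and 16.4 TPM in controls against 20.1, 10.1 and 26.0 TPM after irradiation. Irradiated tumors 2 and 3 were the lowest and highest of all 6. The fit gave a log2 difference of -0.17 (95% interval -0.89 to 0.56, limma adjusted p = 0.802), which turned to 0.20 without irradiated tumor 2. ITGB3, which pairs with ITGAV and marks platelets and osteoclasts in the body, was at 4.36 to 5.56 TPM in controls and 4.74 to 7.32 TPM after irradiation (log2 fold change 0.19, 95% interval -0.31 to 0.69, limma adjusted p = 0.661). ITGB8, which with ITGAV activates latent TGF-beta, was at 0.91 to 1.87 TPM in controls against 1.56 to 1.87 TPM after irradiation (0.20, interval -0.39 to 0.79, limma adjusted p = 0.687). Its antisense gene ITGB8-AS1, at 0.16 to 1.50 TPM, overlaps it on the opposite strand, and reads of the shared bases cannot be told apart where strand was not used. At levels this near the limit of 1 TPM the log2(TPM + 1) scale understates fold changes. The platelet genes PF4, PPBP and GP9 were listed at 0 in all 6 tumors, and ITGA2B, the platelet partner of ITGB3, did not exceed 0.34 TPM.

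Among the alpha chains ITGA6, a laminin receptor that pairs with ITGB1 or ITGB4, had the smallest p. It was at 49.3, 31.3 and 44.6 TPM in control tumors 1, 2 and 3 and at 32.8, 26.4 and 23.7 TPM in irradiated tumors 1, 2 and 3. Control tumor 2 lay below irradiated tumor 1, and otherwise the irradiated tumors were lower. The means were 41.7 ± 9.35 and 27.6 ± 4.66 TPM (log2 fold change -0.56, 95% interval -1.04 to -0.09, limma unadjusted p = 0.0257, adjusted p = 0.176). The fold change was below 0 in all 19 alternative fits, from -0.75 to -0.43, and the adjusted p ranged from 0.0551, without control tumor 2, to 0.367. Its share of the summed alpha chains was 10.2%, 5.91% and 8.06% in controls and 5.34%, 4.50% and 4.74% in irradiated tumors, without overlap. The ratio of ITGA6 to ITGB4 was 2.41, 1.37 and 2.72 in controls and 1.64, 2.62 and 0.912 in irradiated tumors, so the groups overlapped. ITGA6 (ENSG00000091409) lies at chr2:172427354-172506282 on the plus strand, and the antisense gene ENSG00000225205 opposite it was at 0.95 to 3.47 TPM.

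ITGA5, the fibronectin receptor chain, was at 82.1, 94.7 and 105 TPM in controls and 124, 138 and 94.7 TPM after irradiation. Irradiated tumor 3 lay among the controls and the other irradiated tumors above them (log2 fold change 0.33, 95% interval -0.07 to 0.73, limma adjusted p = 0.332). Its ligand fibronectin, FN1, was at 431, 1092 and 551 TPM in controls against 1788, 1225 and 1274 TPM after irradiation (log2 fold change 1.14, limma adjusted p = 0.0985), and it passed without control tumor 2 (adjusted p = 0.0146), the control closest to the irradiated tumors. FN1 did not pass when any other single tumor was omitted (limma adjusted p up to 0.274), and passed in 3 of 19 alternative fits. ITGA3, a laminin receptor and the most abundant chain, was at 313, 372 and 376 TPM in controls and 429, 385 and 353 TPM after irradiation (0.14, interval -0.17 to 0.45, limma adjusted p = 0.591). The interval for ITGA3 is the narrowest of the 10.

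ITGA2, a collagen receptor chain, was at 26.4, 17.2 and 14.9 TPM in controls against 16.8, 18.7 and 16.0 TPM after irradiation. Control tumor 1 alone stood above the rest, and without it the log2 fold change of -0.14 (95% interval -0.64 to 0.37, limma adjusted p = 0.763) turned to 0.09. ITGAV was at 14.5, 14.6 and 13.0 TPM in controls and 10.7, 17.3 and 12.9 TPM after irradiation (log2 difference -0.06, interval -0.52 to 0.40, limma adjusted p = 0.891), with the lowest and the highest value both among irradiated tumors. Its direction was not stable, and turned above 0 with quantile normalization, with sample weights and without irradiated tumor 1. ITGB5 exceeded ITGAV by a factor of 6.34, 6.25 and 8.35 in controls and of 15.9, 10.9 and 9.58 in irradiated tumors, without overlap.

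**Figure D4:**
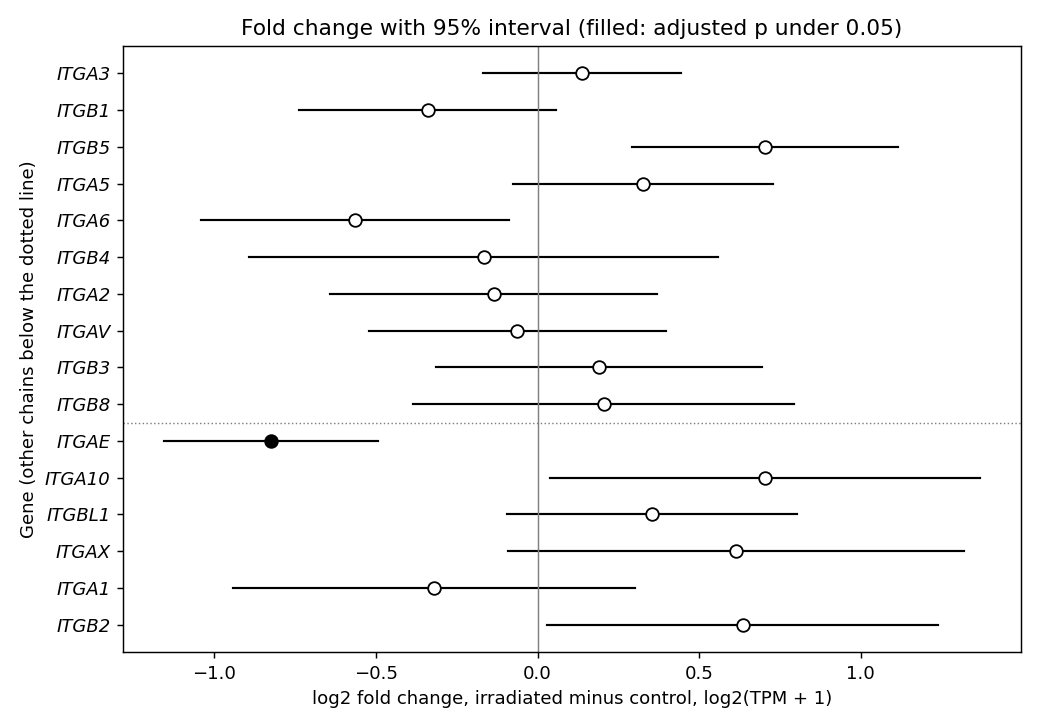
log2 fold change (irradiated minus control, log2(TPM + 1)) with its 95% interval from limma for the 10 chains and, below the dotted line, the 6 other integrin genes that were tested. Filled points have an adjusted p under 0.05, which holds for ITGAE alone (-0.83).

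Of 17 other integrin genes, 6 reached the mean of 1 TPM and 1 passed, where 2.98% of all tested genes did. ITGAE, the alpha chain that joins ITGB7 to bind E-cadherin on lymphocytes of epithelia, fell from 41.6, 39.0 and 35.7 TPM in control tumors to 20.2, 23.4 and 20.7 TPM in irradiated tumors (log2 fold change -0.83, 95% interval -1.16 to -0.49, limma adjusted p = 0.0267). The groups did not overlap. Its partner ITGB7 was at 0 to 0.51 TPM in the 6 tumors. ITGAE shares exonic bases with HASPIN, a mitotic kinase gene on the opposite strand, which was at 9.14, 5.14 and 9.50 TPM in controls against 5.50, 5.23 and 7.16 TPM after irradiation. The use of strand is not given in the sources used here, so reads of the 2 genes in those bases cannot be told apart. The call of ITGAE ended when any tumor but control tumor 2 was omitted (limma adjusted p up to 0.114), when both tumors numbered 2 were, with a replicate block and without a filter on low values.

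The other tested chains did not pass in limma. ITGA10, a collagen receptor chain of cartilage, was at 7.25, 9.73 and 7.02 TPM in controls and 9.02, 20.9 and 13.0 TPM after irradiation (log2 fold change 0.70, limma adjusted p = 0.221). ITGB2, the beta chain of leukocytes, was at 0.92 to 1.46 TPM in controls against 1.70 to 3.08 TPM after irradiation, without overlap (0.63, adjusted p = 0.225), and its partner ITGAX was at 2.03 to 2.29 and 2.14 to 5.96 TPM (0.61, adjusted p = 0.301). The 5 tested markers of myeloid cells did not share a direction, with log2 fold changes of 0.61 for CD68 (74.9 to 94.2 TPM in controls and 91.2 to 187 TPM after irradiation), 0.64 for ADGRE1, -0.99 for LYZ, -0.42 for AIF1 and -0.13 for CSF1R, and 0 passed in limma. PTPRC did not exceed 0.30 TPM and TYROBP was listed at 0. ITGA1, which shares exons with PELO on the same strand and is uncertain for that reason (-0.32, adjusted p = 0.538), and ITGBL1, a secreted relative of beta chains (0.36, adjusted p = 0.344), overlapped between the groups. ITGA11, a chain of fibroblasts, and ITGA7, one of muscle, stayed under the mean of 1 TPM.

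Genes that act on integrin tails were not called either. Of 16 tested, 0 passed in limma, and at an unadjusted p under 0.05 1 was higher and 5 were lower, where 8.93% and 11.5% of all tested genes were. ITGB1BP1 (ICAP-1), which binds the ITGB1 tail and holds the receptor inactive, was at 83.5, 80.2 and 77.9 TPM in controls against 54.7, 56.2 and 50.2 TPM after irradiation, without overlap (log2 fold change -0.58, 95% interval -0.86 to -0.29, limma adjusted p = 0.0514). RAP1B, a small GTPase that recruits talin, was at 186, 138 and 167 TPM in controls and 120, 125 and 115 TPM after irradiation, without overlap (-0.44, adjusted p = 0.139). ITGB1BP1 passed in 4 of 19 alternative fits and RAP1B in 1. In 7 of the 16 genes all irradiated tumors were below all controls, against 15.0% of all tested genes, and the median log2 fold change of the list was -0.048.

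Adaptors and kinases of the focal adhesion carry the signal of bound integrins into the cell. Of 34 tested, 0 passed in limma. At an unadjusted p under 0.05 4 were higher and 0 lower, where 8.93% and 11.5% of all tested genes were. TRIP6, a zyxin relative, was at 113 to 136 TPM in controls against 148 to 164 TPM after irradiation (log2 fold change 0.34, adjusted p = 0.180). The kinase SRC was at 18.0 to 25.5 TPM in controls and 28.4 to 33.0 TPM after irradiation (0.45, adjusted p = 0.190). The list had a median of -0.040. Of 5 tested hemidesmosome partners of ITGA6 and ITGB4, 0 passed in limma and 1 was lower at an unadjusted p under 0.05, against 11.5% of all tested genes. That was DST, which links the receptor to the cytoskeleton, at 41.2 to 49.4 TPM in controls against 25.6 to 30.6 TPM after irradiation (-0.62, adjusted p = 0.0683).

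Of 11 tested tetraspanins and lateral partners 1 rose, SLC3A2, where 1.37% of all tested genes did. At an unadjusted p under 0.05 4 were higher and 0 lower, where 8.93% and 11.5% of all tested genes were. In 4 of the 11 all irradiated tumors were above all controls, as in 11.6% of all tested genes. The median log2 fold change of the list was 0.27. SLC3A2 (CD98 heavy chain), which binds beta tails and amino acid transporters, had all irradiated tumors (187 to 201 TPM) above all controls (117 to 138 TPM), with a log2 fold change of 0.63 (limma adjusted p = 0.0356). Omitting any tumor but control tumor 2 ended this call (adjusted p up to 0.145). Of 18 tested genes of integrin uptake and recycling 1 fell, where 1.61% of all tested genes did. At an unadjusted p under 0.05 1 was higher and 4 were lower, where 8.93% and 11.5% of all tested genes were. RAB21, a GTPase that binds alpha chains and carries integrins into endosomes, was at 42.2, 32.5 and 37.4 TPM in controls and 21.2, 23.0 and 20.6 TPM after irradiation (-0.76, adjusted p = 0.0413), and omitting any tumor but control tumor 2 ended its call as well (adjusted p up to 0.149). For both genes the call also ended with a replicate block, without trend, without a filter on low values and with both tumors numbered 2 omitted.

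Among ligands of integrins 4 genes were called, all lower after irradiation, where 1.61% of all tested genes were called lower and 1.37% higher. Other ligands were higher or lower without passing. Of 15 tested fibronectin and RGD ligands 1 fell, CCN2, a matricellular protein, with means of 349 ± 66.7 TPM in controls against 137 ± 46.6 TPM after irradiation (log2 difference -1.38, limma adjusted p = 0.0322). Omitting any tumor but irradiated tumor 3 ended this call (adjusted p up to 0.101), as did omitting both tumors numbered 2, a fit without trend and a fit without a filter on low values. At an unadjusted p under 0.05 4 of the 15 were higher and 2 lower, where 8.93% and 11.5% of all tested genes were. The 4 were FN1, EDIL3 (log2 fold change 0.94, adjusted p = 0.0755), LTBP1 (0.59, adjusted p = 0.118) and LTBP3 (0.63, adjusted p = 0.160). The 2 were CCN2 and CCN1 (-1.16, adjusted p = 0.0556). Each of these was without overlap between the groups, as were 26.6% of all tested genes. Of 9 tested collagen ligands 3 fell, COL1A1, COL1A2 and COL3A1, by 1.96, 2.07 and 2.29 on the log2 scale (adjusted p = 0.0194, 0.0112 and 0.0151). Fibroblasts are a main source of these collagens, and the 3 genes are themselves the fibroblast markers that passed, so the summed markers are not a separate measure. Omitting irradiated tumor 3 ended all of these calls. Omitting irradiated tumor 1 ended those of COL1A1 and COL3A1, and omitting control tumor 1 that of COL1A1 (adjusted p up to 0.0722, 0.0508 and 0.0605 for the 3 genes in that order). All 3 were also lost without a filter on low values, and COL1A2 with both tumors numbered 2 omitted. At an unadjusted p under 0.05 3 of the 9 collagens were higher and 4 lower, against 8.93% and 11.5% of all tested genes. COL6A1 (0.79, adjusted p = 0.0744) and COL6A2 (0.67, adjusted p = 0.0706) were higher in all irradiated tumors than in all controls, and COL6A3 (1.37, adjusted p = 0.213) overlapped. Of 7 tested laminin ligands 0 passed in limma. At an unadjusted p under 0.05 1 was higher and 2 were lower, against 8.93% and 11.5% of all tested genes. The 1 was LAMB2, at 420 to 527 TPM in controls against 538 to 658 TPM after irradiation (0.41, limma adjusted p = 0.153). The 2 were LAMA4, a laminin chain of vessels (-0.93, adjusted p = 0.0986), and NID2, a nidogen that joins laminin to collagen IV (-1.27, adjusted p = 0.128). LAMA4 was at 4.26 to 6.31 and 1.41 to 2.88 TPM, and NID2 at 2.27 to 8.33 and 0.81 to 2.18 TPM. The summed list was at 613 to 687 TPM in controls and 720 to 852 TPM after irradiation.

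**Figure D5:**
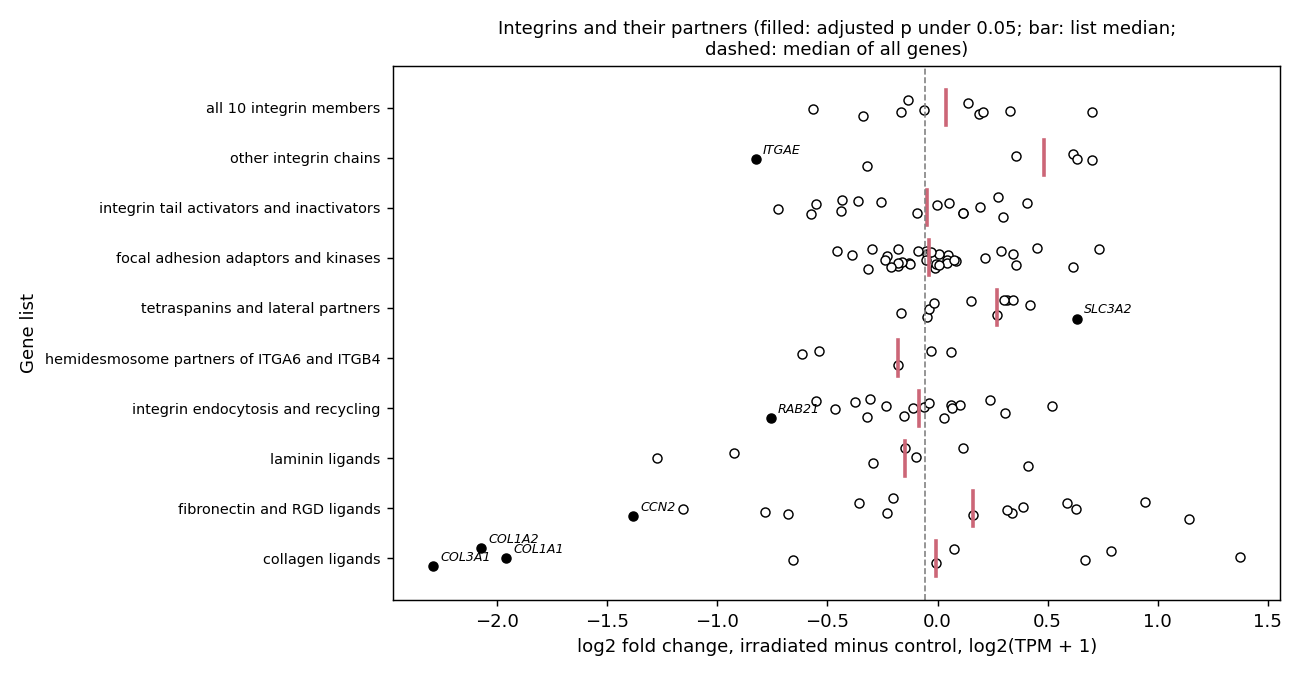
log2 fold change (irradiated minus control, log2(TPM + 1)) of each tested gene of the integrin lists and partner lists, 1 point per gene, with the list median as a red bar and the median of all tested genes (-0.056) as a dashed line. The filled, named points are the 7 genes with an adjusted p under 0.05, of which SLC3A2 alone lies above 0.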

How the data were processed

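A single table gave 60606 genes in 6 tumors. Its values are TPM, made and deposited by the authors, with 2 decimals. Per the submitters' processing notes HISAT2, StringTie and RSEM and the build hg38 were used. A TruSeq RNA kit was applied to total RNA, per the labels' protocols. Not given in the sources used here are the annotation, the strand setting and how mouse reads were handled. TPM keeps no depth, so the reads behind each value are unknown and no counting interval is given.

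The comparison used limma (3.58.1, R 4.3.3; trend, group as the only term, two-sided) on log2 values after adding a pseudocount of 1 TPM. The 14140 genes whose mean reached 1 TPM were tested, with Benjamini-Hochberg adjustment over all of them at 0.05. The fit was tested on simulated data. Single values per tumor had exact permutation tests.

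Alternatives changed the pseudocount (0.1 and 5 TPM), the filter (none, 5 TPM), the scaling, the variance model, the pairing and the tumors included. Summing ITGB1P1 with ITGB1 was added after seeing the data. The members and lists were chosen with earlier results of these data known. Beside the 10 members, the rule named other integrin chains that were tested and, in each list, the called genes or the 2 with the smallest p. A gene that this rule named is not reported here. ITGB1P1, FN1, CCN1, EDIL3, LTBP1, LTBP3, COL6A1, COL6A2, COL6A3, LAMB2 and the marker genes given with values were named after their values were seen. Positions and transcripts are from GENCODE release 29 (GRCh38, the assembly of hg38), and need not be the authors' annotation. Protein sequences were not used here.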

Additional observations from a re-analysis of the deposited data

How the results depend on the processing

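The number of integrin members called was 0 in 18 of the 19 alternative fits and 1 (ITGB5) with sample weights. Over all genes 421 were called, and the count moved by more than 1.5 times to 133 without a filter on low values, 279 without trend, 1064 with sample weights, 186 without control tumor 2 and irradiated tumor 2 together, and 127 to 791 without single tumors. The highest, 791 (229 higher and 562 lower), was without control tumor 2, and the other 5 gave 127 to 192. The cause of these moves was not tested. With a replicate block 185 were called, and 0 members. The tumors share only a number across groups: deviations of same-numbered tumors had correlations of -0.043, -0.046 and -0.059 over 14140 genes, and 0 of 6 tumors correlated best with their own number. ITGA3, ITGA5, ITGA6, ITGB1, ITGB5 and ITGB8 kept their direction in all alternatives in which they were tested. Directions turned for ITGA2 without control tumor 1 (0.093), for ITGAV with quantile normalization (0.0047), with sample weights (0.053) and without irradiated tumor 1 (0.086), for ITGB3 without both tumors 2 (-0.032), and for ITGB4 without irradiated tumor 2 (0.20) and without both tumors 2 (0.31). With a minimum mean of 5 TPM ITGB8 was not tested. The differences in summed level and in the ITGB1 share kept their direction in all alternatives run. Without single tumors the log2 fold change ranged from -0.30 to 0.093 for ITGA2, from -0.24 to 0.086 for ITGAV and from -0.44 to 0.20 for ITGB4. The ITGB1 share differed by -18.1 to -12.7 percentage points and the summed level by 13.9 to 106 TPM. Precision is limited by 3 tumors a group and unknown depth: the standard error of a member's log2 fold change was 0.134 (ITGA3) to 0.316 (ITGB4).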

Other observations

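Among 9888 genes whose mean reached 5 TPM, those most like ITGB5 over the 6 tumors, by Pearson's r of log2(TPM + 1), were ST3GAL1 (0.992), a sialyltransferase, OCIAD1 (0.989), BTN3A1 (0.988), a butyrophilin, PPIB (0.984) and OS9 (0.984), both proteins of the endoplasmic reticulum. They were picked as the highest of 9888 values over 6 points that include the difference between the groups, so they describe these tumors and carry no test. Partner chains did not share 1 pattern. With group means removed, r over the 6 tumors was 0.895 for ITGA2 with ITGB1, 0.695 for ITGAV with ITGB1, -0.559 for ITGA3 with ITGB1 and -0.205 for ITGA6 with ITGB4, again as a description of 6 points that share the scaling of each tumor.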
